A study of Homo sapiens with 6 samples.

Results

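The nuclear-encoded subunits of oxidative phosphorylation were described in K562 lines that carried the PU.1 variant PU.2 or an empty vector. A gene was a member if its symbol began with NDUFA, NDUFB, NDUFC, NDUFS, NDUFV, UQCR, COX4I, COX5, COX6, COX7, COX8 or ATP5, or was SDHA, SDHB, SDHC, SDHD or CYC1, and if a probe set carried that symbol alone. Of 90 such symbols, 7 NDUFAF assembly factors, 2 pseudogenes and 1 non-coding gene were left out, which gave 80 members among 18417 genes. Complex I had 34 members, complex II 3, complex III 8, complex IV 17 and complex V 18, spread over 22 chromosomes. Some core subunits, SDHB and UQCRFS1 among them, were not analysed here.

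K562 is a human leukemia line with erythroid features. It was electroporated with pEF1α, a plasmid with the promoter of a translation elongation factor, or with pEF1α-Pu.2. The second is the same plasmid with the murine coding sequence of a shortened PU.1, which keeps the DNA-binding ETS domain. In mouse cells the transcript of that protein starts in a retrotransposon, whereas the cloned sequence was amplified from its start of translation. The lines are called vector and Pu.2 lines here. Stable lines were held in 2 μg/mL puromycin and grown from single cells, so each of the 3 lines per group is 1 clone, and n counts lines. Total RNA of each line was read on 1 Affymetrix Human Gene array, whose probe sets each summarize the brightness of several probes as a log2 value. The labels name an insect cell medium for these lines, whereas the study's methods give RPMI for K562. The p-values measure the spread between these clones, which may be partly technical.

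Oxidative phosphorylation takes place in the inner mitochondrial membrane. Complex I oxidizes NADH and complex II oxidizes succinate, and both pass electrons through ubiquinone to complex III, which hands them by cytochrome c to complex IV, where oxygen is reduced. Complexes I, III and IV pump protons, and complex V, the ATP synthase, lets them flow back to make ATP. Each of these complexes but complex II also holds subunits encoded in mitochondrial DNA, which had no probe set of a single symbol and were not analysed here. Erythroid cells rely on mitochondria for heme synthesis and iron-sulfur clusters until the organelles are cleared late in maturation.

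All lines showed erythroid features, which alone do not identify K562. Of 7 measured erythroid markers, 7 were at least as bright as the median probe set (a log2 value of 5.37) on every array. GATA1, KLF1 and HBE1 were among them. By their mean, 10496 of 18417 genes lay at or above that level. Of 9 measured markers of other cell types, 2 reached it on every array, which were EPCAM (10.28 to 11.08) and COL1A1 (6.29 to 6.72). CD3D, a T cell gene, had a log2 fold change of -1.25 (limma adjusted p = 0.090), and its part in the results was not tested. SPI1, the human gene of PU.1, lay at 6.32, 6.05 and 6.12 in vector lines 1, 2 and 3 and at 6.59, 6.49 and 6.41 in Pu.2 lines 1, 2 and 3. Whether its probes also read the murine transcript was not analysed here. Array medians lay between 5.30 and 5.42. The upper quartile of the values was lowest in Pu.2 line 3, at 6.95 against 6.99 to 7.04 on the other arrays, and that line and vector line 3 also stood at the ends of the range of the members, as shown for each line further on.

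No subunit gene differed between the groups past limma over all genes. In the data for the 80 members, 0 had an adjusted p under 0.05 and the smallest was 0.38, while 0.369% of all genes passed in either direction. With weights for each array, NDUFV3 and ATP5MC1 passed. That fit gave vector line 2 a weight of 5.52 against 0.40 to 1.34 for the other arrays, and many more genes passed in it. The log2 fold change, or the mean of the Pu.2 lines minus the mean of the vector lines on the log2 scale, ran from -0.66 in NDUFA13 to 0.34 in NDUFV3 and in ATP5MC1. At an unadjusted p under 0.05, 2 members were higher and 3 lower, which is 6.25% of the members, and 9.53% of all genes reached that level. In 11 members the groups did not overlap (4 higher and 7 lower in the Pu.2 lines), or 13.75%, beside 13.8% of all genes. These shares lie at or below the background, so none of them is a result about the members.

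What the members shared was a small shift toward lower values. Their median log2 fold change was -0.11, against 0.02 over all genes, and 64 of 80 lay below 0, against 45.9% of all genes. Among brighter genes, 51.6% of those no dimmer than the median probe set and 55.7% of those with a mean log2 value of 9 or more lay below 0. The bound of 9 was chosen after the values were seen, because the members have a median level of 8.90. The count of members below 0 was 49 without Pu.2 line 3 (median -0.03) and 51 without vector line 3 (median -0.05), and 61 to 65 without any other line. In RNA of whole cultures, fewer cells of a type and less RNA per cell cannot be told apart.

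The data bound the differences of the members. The median standard error (SE) of a member's log2 fold change was 0.16 (n = 3 lines each), near the 0.15 of all genes. In 79 of 80 members the 95% interval lay within 1 log2 unit of 0, the exception being NDUFA13, and in 40 it lay within 0.5.

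**Figure D1:**
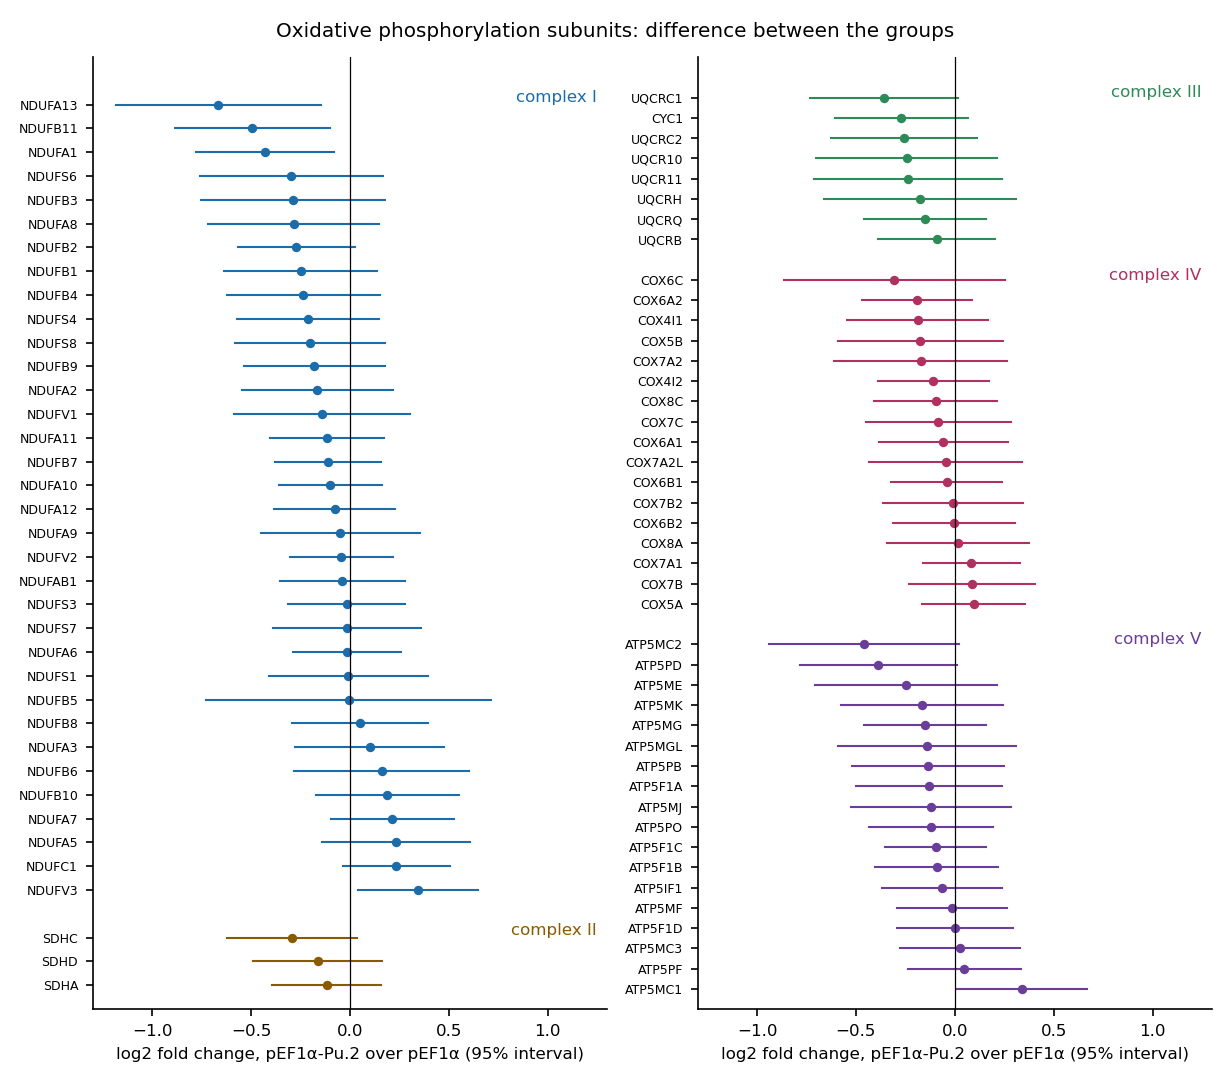
Log2 fold change of each of the 80 subunit genes (horizontal axis, Pu.2 lines minus vector lines, log2 units) with its 95% interval from limma, by complex. Points are estimates from 3 lines per group, and 64 of 80 lie left of 0.

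Promoters of these genes are known for a few shared elements, and the RefSeq windows of the members (GRCh38.p14, 250 bases before to 50 after the start) were searched for their letters on both strands. None of the motifs searched contains another. A window was found for 67 of 80 members. CGCATGCG, the core of the site of NRF1, an activator of nuclear genes for mitochondria, was in 10 of 67 windows (14.9%, exact 95% interval 7.40 to 25.7%) and in 2.19% of all 27305 windows. CCGGAAG, the core read by ETS factors such as GABPA, was in 19 (28.4%, interval 18.0 to 40.7%), against 10.7% of all windows. AAGATGGCG, the letters of YY1, was in 7 (10.4%, interval 4.30 to 20.3%), against 1.85%. In the 250 bases before the start alone, 1 of 67 members held AAGATGGCG (1.49%), against 0.641% of all windows. At least 1 of the factor motifs was in 31 of 67 windows.

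PU.1 and PU.2 share the ETS domain, whose preferred site differs from that of GABPA in the bases before the GGAA core. GAGGAAGT, a site of the PU.1 kind, was in 2 of 67 windows, those of ATP5PF and NDUFA5 (2.99%, interval 0.364 to 10.4%), against 2.54% of all windows. TATAAA was in 7 windows (10.4%), against 12.0%. In windows of protein-coding genes alone the shares were 2.88% for CGCATGCG, 14.2% for CCGGAAG, 2.74% for AAGATGGCG, 2.52% for GAGGAAGT and 9.63% for TATAAA. A match is a run of letters and not a shown site, and the intervals cover counting error only.

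The windows of 4 members are given as the 250 bases before the start, 5′ to 3′ on the strand of the gene, with matches to the 4 factor motifs in capitals. NDUFA13 (chr19:19515975-19516224, plus strand) and NDUFV3 (chr21:42893059-42893308, plus strand) had the lowest and the highest log2 fold change. UQCR11 (chr19:1605463-1605712, minus strand) held CCGGAAG on each strand, and COX6A1 (chr12:120437863-120438112, plus strand) held both the NRF1 and the ETS letters. NDUFV3 held none of the 4.
NDUFA13: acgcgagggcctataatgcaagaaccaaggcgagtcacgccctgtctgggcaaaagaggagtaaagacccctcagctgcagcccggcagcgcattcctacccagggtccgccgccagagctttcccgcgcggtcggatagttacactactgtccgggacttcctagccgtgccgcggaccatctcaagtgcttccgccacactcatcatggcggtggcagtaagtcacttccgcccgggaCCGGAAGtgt
NDUFV3: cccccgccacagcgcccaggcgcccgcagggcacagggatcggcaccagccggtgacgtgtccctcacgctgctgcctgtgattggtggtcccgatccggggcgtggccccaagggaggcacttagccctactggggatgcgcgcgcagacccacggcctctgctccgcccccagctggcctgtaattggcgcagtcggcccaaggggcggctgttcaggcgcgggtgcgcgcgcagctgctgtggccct
UQCR11: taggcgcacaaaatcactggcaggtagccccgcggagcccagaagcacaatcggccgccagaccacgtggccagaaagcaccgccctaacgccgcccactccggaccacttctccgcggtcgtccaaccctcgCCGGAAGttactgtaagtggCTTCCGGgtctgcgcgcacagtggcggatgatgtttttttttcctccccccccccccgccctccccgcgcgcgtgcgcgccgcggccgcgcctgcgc
COX6A1: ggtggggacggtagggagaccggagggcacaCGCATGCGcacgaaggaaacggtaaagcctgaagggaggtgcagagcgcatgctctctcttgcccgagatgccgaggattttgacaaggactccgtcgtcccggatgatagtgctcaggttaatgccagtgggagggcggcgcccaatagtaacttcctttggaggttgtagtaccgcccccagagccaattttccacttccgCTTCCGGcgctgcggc

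The windows of many members lay over another annotated gene. Its orientation and its own start were not examined, so a shared promoter was not tested. In 23 of 67 members (34.3%, exact 95% interval 23.2 to 46.9%) these 250 bases lay over the annotated span of another protein-coding gene, against 16.9% of protein-coding genes. The ATP5PF window, over the annotated span of GABPA itself, held the letters of all 4 factor motifs, and the NDUFS6 window lay over MRPL36, a protein of the mitochondrial ribosome. The NDUFA1 window lay over RNF113A and the SDHD window over TIMM8B, which helps import proteins into mitochondria. The windows printed above lay over no annotated protein-coding gene.

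The log2 fold changes were also set out by motif. Members with CCGGAAG had a median of -0.16 (n = 19) and those without -0.10 (n = 48). For CGCATGCG the medians were -0.20 (n = 10) and -0.11 (n = 57), and for AAGATGGCG they were -0.01 (n = 7) and -0.12 (n = 60). ATP5PF and NDUFA5, the members with GAGGAAGT, had log2 fold changes of 0.05 and 0.23. These are descriptions of groups that overlap in their members, and no test was made.

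**Figure D2:**
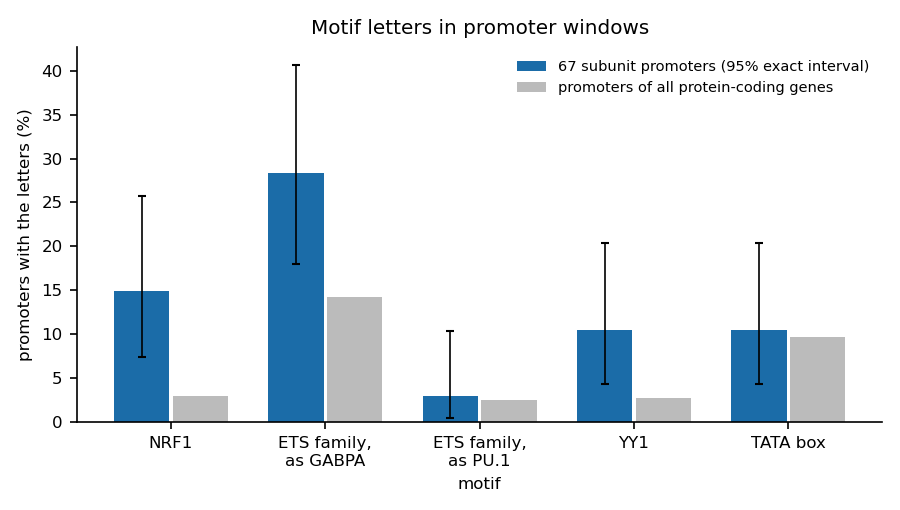
Share of promoter windows (vertical axis, percent) with each motif (horizontal axis), for 67 subunit genes (blue, with exact 95% intervals) and for all protein-coding genes (gray). The share was 14.9% against 2.88% for the NRF1 letters and 2.99% against 2.52% for the PU.1 letters.

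Complex I, the NADH dehydrogenase and the complex with the most members, held 4 of the 5 members at an unadjusted p under 0.05. These were 11.8% of the complex, beside 9.53% of all genes and 13.2% of genes at or above the median level. Its 34 members had a median log2 fold change of -0.09, and 26 lay below 0. Without Pu.2 line 3 the median was -0.03 with 20 of 34 below 0, and without vector line 3 it was -0.05, also with 20. Values of each group are given for lines 1, 2 and 3 in that order. NDUFA13, also known as GRIM-19, is an accessory subunit needed for assembly of the complex. It had log2 values of 7.12, 7.01 and 7.16 in vector lines 1, 2 and 3, against 6.82, 6.60 and 5.88 in the Pu.2 lines in the same order. The groups did not overlap, and Pu.2 line 3 lay well under the others. The log2 fold change was -0.66 (SE 0.23, 95% interval -1.18 to -0.15, limma adjusted p = 0.38), or 1.59-fold lower, and it was -0.39 without that line.

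NDUFB11 and NDUFA1 are accessory subunits of the membrane arm, and both are encoded on the X chromosome. NDUFB11 had log2 values of 10.11, 9.85 and 9.72 with the empty vector and of 9.50, 9.61 and 9.09 with Pu.2, without overlap, a log2 fold change of -0.49 (SE 0.17, limma adjusted p = 0.39). NDUFA1 had 11.14, 10.95 and 11.30 with the empty vector and 10.87, 10.76 and 10.46 with Pu.2, also without overlap, a log2 fold change of -0.43 (SE 0.15, limma adjusted p = 0.40). In both genes Pu.2 line 3 was the lowest line. COX7B of complex IV, the other X-linked member, had a log2 fold change of 0.09.

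NDUFV3, an accessory subunit of the NADH-binding part, went the other way. Its log2 values were 8.42, 8.02 and 8.18 with the empty vector and 8.52, 8.58 and 8.56 with Pu.2. The Pu.2 lines lay close together and above all vector lines, with a log2 fold change of 0.34 (SE 0.13, 95% interval 0.04 to 0.65, limma adjusted p = 0.45). NDUFC1, a small subunit of the membrane arm, was also without overlap and higher, at 0.23 (limma adjusted p = 0.62), and NDUFB2 was without overlap and lower, at -0.27 (adjusted p = 0.58).

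Some other subunits of complex I were read for their role. NDUFV1, which binds NADH and flavin, had a log2 fold change of -0.14, which was 0.06 without Pu.2 line 3, and its partner NDUFV2 had one of -0.04. The iron-sulfur subunit NDUFS1 had -0.01, as did NDUFS7 next to the ubiquinone site, while NDUFS8 had -0.20. NDUFAB1, the mitochondrial acyl carrier protein that also serves fatty acid and lipoate synthesis, had -0.04. The largest SE of any member was in NDUFB5, with 9.86, 10.79 and 11.01 in the vector lines, 10.89, 10.08 and 10.67 in the Pu.2 lines and a log2 fold change of -0.01 (SE 0.32).

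In complex II all 3 members lay below 0, with a median of -0.16. SDHC, which anchors the complex in the membrane, had log2 values of 8.81, 8.70 and 8.61 with the empty vector and of 8.45, 8.62 and 8.18 with Pu.2, with a log2 fold change of -0.29 (SE 0.14, limma adjusted p = 0.60). The groups overlapped at a single pair of lines, and the difference was -0.17 without Pu.2 line 3. SDHD, the other anchor, had a log2 fold change of -0.16 and SDHA, the flavin subunit that oxidizes succinate, one of -0.12. Dimmer probe sets of SDHC and SDHD gave -0.20 and -0.07, and which of the sets read the genes themselves was not resolved.

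Complex III had the lowest median, -0.24, and 8 of 8 members below 0. UQCRC1, a core subunit, had log2 values of 5.87, 6.06 and 6.22 in vector lines 1, 2 and 3, against 5.91, 5.76 and 5.41 in the Pu.2 lines in the same order, with a log2 fold change of -0.36 (SE 0.16, limma adjusted p = 0.55). The groups overlapped, Pu.2 line 3 was again the lowest line, and without it the log2 fold change was -0.22. CYC1, the cytochrome c1 that passes electrons on, had 7.89, 7.86 and 7.88 with the empty vector and 7.81, 7.69 and 7.32 with Pu.2. Its groups did not overlap, and its log2 fold change was -0.27 (SE 0.15, limma adjusted p = 0.65) and -0.13 without Pu.2 line 3.

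UQCRC2, the other core subunit, had a log2 fold change of -0.26 with a different layout. Its Pu.2 lines read 10.14, 10.14 and 10.20, and the vector lines 10.12, 10.39 and 10.73, so vector line 3 was high rather than Pu.2 line 3 low. The log2 fold change was -0.10 without vector line 3 and -0.40 without vector line 1. The small subunits UQCR10, UQCR11, UQCRH, UQCRQ and UQCRB lay between -0.24 and -0.09. UQCR11 read 7.18, 7.27 and 7.24 with the empty vector and 7.33, 7.17 and 6.49 with Pu.2, where line 3 alone was apart. Its log2 fold change of -0.24 was 0.02 without that line. The median of complex III was -0.08 with 6 of 8 below 0 without Pu.2 line 3, and -0.15 with 7 of 8 without vector line 3.

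Complex IV, cytochrome c oxidase, had a median of -0.06 with 13 of 17 members below 0, and no member at an unadjusted p under 0.05. Without Pu.2 line 3 the median was 0.01 with 8 of 17 below 0. COX6C had the lowest log2 fold change, -0.31 (SE 0.24, limma adjusted p = 0.80). It read 9.62, 9.64 and 10.26 with the empty vector and 9.82, 9.73 and 9.06 with Pu.2, so the third line of each group set the difference, which was -0.07 without Pu.2 line 3 and -0.10 without vector line 3. COX5A and COX5B, which flank the catalytic core, had 0.10 and -0.17.

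Several subunits of complex IV come as a common form and a form restricted to some tissues. Of the restricted forms COX4I2, COX6B2, COX7A1, COX7B2 and COX8C lay under the median probe set on every array, in both groups. Of these, COX4I2, known from lung and low oxygen, read 5.06 to 5.34, and COX6B2, known from testis, read 3.27 to 3.68. COX6A2, the heart and muscle form, lay above that level at 6.74, 6.50 and 6.56 with the empty vector and 6.31, 6.49 and 6.42 with Pu.2, without overlap and with a log2 fold change of -0.19 (limma adjusted p = 0.71).

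Of the common forms, COX4I1 had a log2 fold change of -0.19, COX6A1 one of -0.06, COX6B1 -0.04, COX7A2 -0.17, COX7B 0.09 and COX8A 0.02, with intervals that all held 0. COX7A1, the muscle form, lay under the median level but without overlap, with 4.72 to 4.79 in the vector lines and 4.80 to 4.86 in the Pu.2 lines. COX7A2L, which helps to join complexes III and IV, had -0.05. NDUFA4, a subunit of complex IV now named COXFA4 and so outside the rule, had -0.03, and its relative COXFA4L2, which is induced at low oxygen, had 0.25 (limma adjusted p = 0.72) and 0.08 without Pu.2 line 2.

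Complex V, the ATP synthase, had a median of -0.12 with 14 of 18 members below 0. The median was -0.03 with 12 of 18 below 0 without Pu.2 line 3, and -0.02 with 10 of 18 without vector line 3. Its membrane ring is built from a c subunit that ATP5MC1, ATP5MC2 and ATP5MC3 each encode, with the same mature protein. ATP5MC1 was higher without overlap, at 9.49, 9.18 and 9.25 with the empty vector and 9.57, 9.85 and 9.50 with Pu.2, with a log2 fold change of 0.34 (SE 0.14, 95% interval 0.01 to 0.67, limma adjusted p = 0.51). ATP5MC2 read 8.57, 8.50 and 8.17 with the empty vector and 8.22, 8.15 and 7.50 with Pu.2, a log2 fold change of -0.46 (SE 0.21, limma adjusted p = 0.55) and of -0.23 without Pu.2 line 3. ATP5MC3 had 0.03, so the genes of 1 protein lay on both sides of 0, and the differences between them were not tested.

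The stalk of the ATP synthase joins the catalytic head to the membrane part. ATP5PD, a stalk subunit, read 10.11, 9.72 and 9.74 with the empty vector and 9.51, 9.71 and 9.18 with Pu.2, without overlap, with a log2 fold change of -0.39 (SE 0.17, limma adjusted p = 0.54) and -0.24 without Pu.2 line 3. The other stalk subunits ATP5PB, ATP5PO and ATP5PF had -0.13, -0.12 and 0.05. ATP5F1A and ATP5F1B, the head subunits that form ATP, had -0.13 and -0.09, and ATP5F1C and ATP5F1D of the rotor had -0.10 and 0.0009. ATP5IF1, which inhibits ATP hydrolysis by the enzyme, had -0.07.

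**Figure D3:**
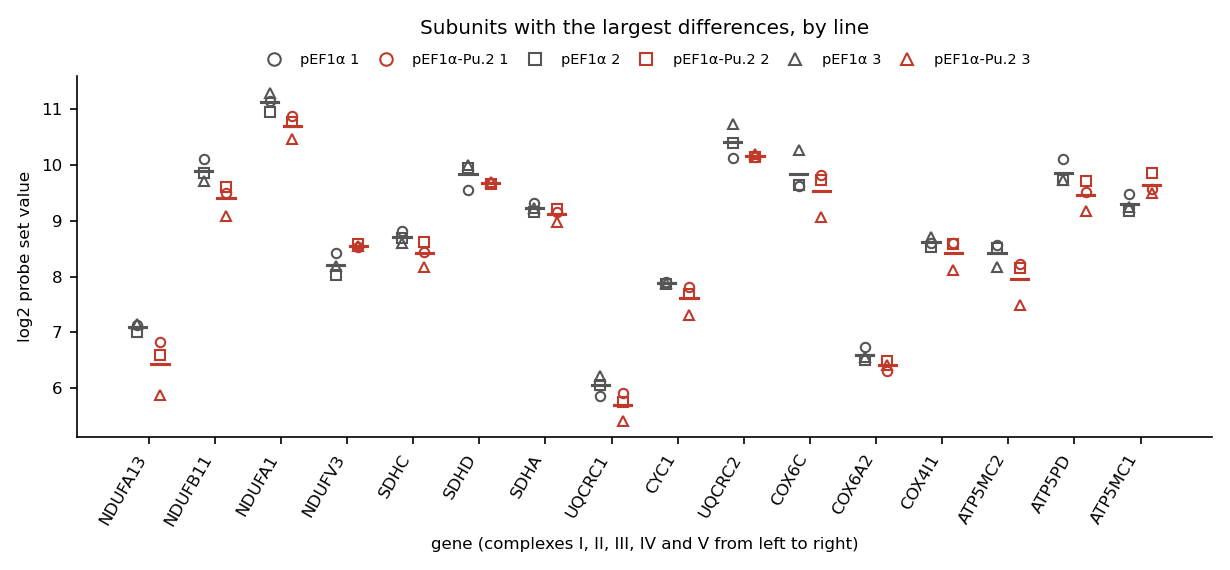
Log2 values (vertical axis) of the members with an unadjusted p under 0.05 and the 3 with the largest differences in each complex. Symbols are single lines (circle, square and triangle for lines 1, 2 and 3), bars are means of 3 lines, gray for vector and red for Pu.2. The red triangle of line 3 is the lowest symbol for NDUFA13, NDUFB11, NDUFA1, SDHC, SDHA, UQCRC1, CYC1, COX6C, COX4I1, ATP5MC2 and ATP5PD.

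Over the lines, the members as a set stood apart in line 3 of each group. The deviation of a gene is its log2 value in a line minus its mean over the 6 lines, and the median deviation of the 80 members was 0.05, -0.03 and 0.14 in vector lines 1, 2 and 3 and 0.04, 0.02 and -0.22 in Pu.2 lines 1, 2 and 3. Both Pu.2 lines 1 and 2 thus lay between vector lines 1 and 2, and line 3 of each group lay outside. For all genes the medians ran only from -0.04 to 0.04. Of the 80 members, 47 (58.75%) had their lowest value in Pu.2 line 3, against 17.1% of all genes and 25.8% of genes at 9 or more.

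Vector line 3 held the highest value of 37 members (46.25%), against 17.5% of all genes. The share was 23.9% for genes at or above the median level and 39.9% for genes at 9 or more. No member had its highest value in vector line 2. The median deviation of complex III ran from 0.26 in vector line 3 to -0.44 in Pu.2 line 3, the widest span among the complexes. In Pu.2 line 3 the other complexes lay at -0.20 for complexes I and II, -0.18 for complex IV and -0.19 for complex V. The part of the narrower distribution of values on that array in these medians was not tested.

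**Figure D4:**
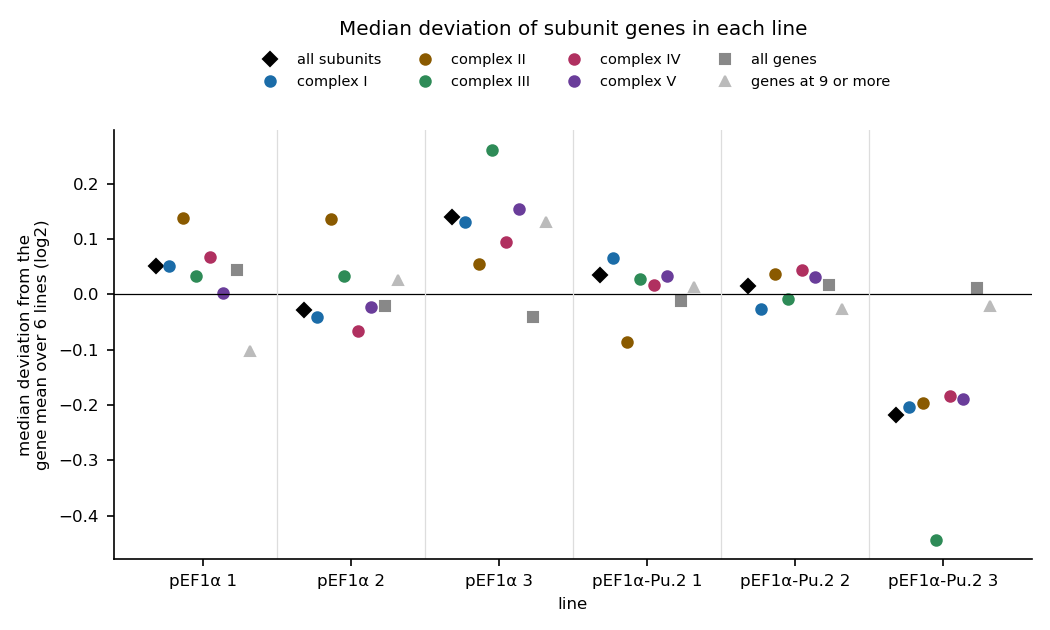
Median deviation of the members from their gene means over the 6 lines (vertical axis, log2 units) in each line (horizontal axis), for all 80 subunits, each complex, all genes and genes with a mean log2 value of 9 or more. In Pu.2 line 3 all complexes lie at -0.18 or lower while all genes lie at 0.01.

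Single members varied over the lines by a median range of 0.56 log2 units, from 0.15 in COX7A1 to 1.28 in NDUFA13. The median range was 0.49 for all genes and 0.55 for genes at or above the median level. Ranges over 1 were found in 5 of 80 members, which were NDUFA13, COX6C, NDUFB5, ATP5MC2 and NDUFB11. They were found in 1731 of 18417 genes, and in 1311 of the 10496 at or above the median level. Vector line 1 held the lowest value of 11 members (13.75%), NDUFB5, NDUFA5, NDUFA9 and NDUFS1 among them. The share was 15.6% for all genes and 38.2% for genes at 9 or more. Genes at 9 or more also had a median deviation of -0.10 in that line, against 0.05 for the members. Of the Pu.2 lines, line 1 lay above the gene mean in 51 members, line 2 in 43 and line 3 in 11.

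**Figure D5:**
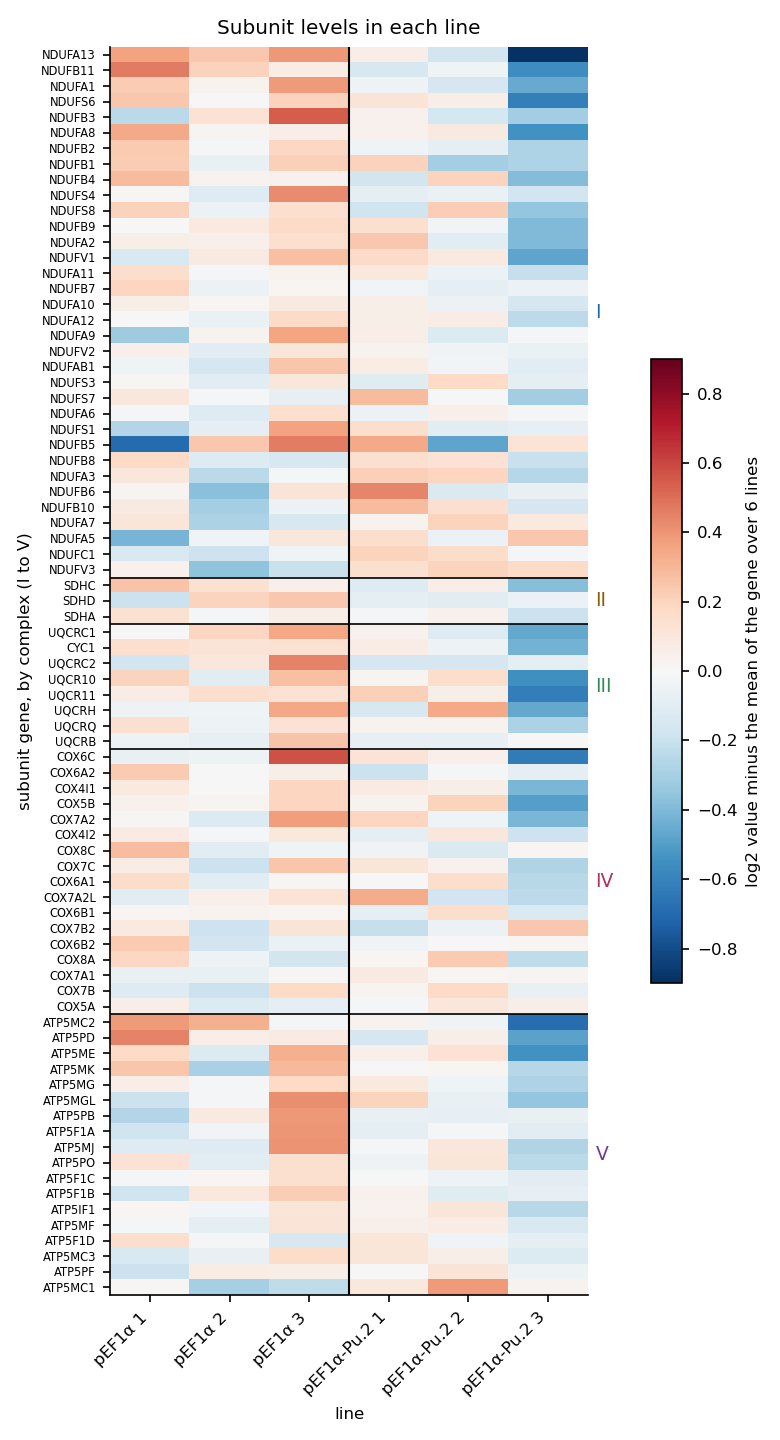
Log2 value of each of the 80 subunit genes (rows, by complex and then by log2 fold change) in each of 6 lines (columns), as the difference from the mean of the gene over the 6 lines, red above and blue below. Blue prevails in Pu.2 line 3, where 69 of 80 members lie below their mean, and red in vector line 3, where 66 lie above it.

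Some subunits share a probe set with another gene. NDUFS5, NDUFC2 and ATP5F1E, each read by a probe set of several symbols, had log2 fold changes of -0.31, -0.32 and -0.34 and were lowest in Pu.2 line 3. A second probe set of UQCRH, shared with UQCRHL and GNA13, had -0.11 and was highest in Pu.2 line 2 and lowest in Pu.2 line 3. The probe sets that SDHA shares with its pseudogenes had -0.20 and -0.18 and were highest in vector line 1 and lowest in Pu.2 line 3. The sets of the read-through genes NDUFC2-KCTD14 (shared with KCTD14) and ATP5MF-PTCD1 had -0.05, -0.08 and 0.02, and none of these was lowest in Pu.2 line 3. Many subunit genes have near-identical processed pseudogenes, and which copies a probe set reads was not resolved here. Probe set numbers largely ran by chromosome. For SDHC, SDHD and NDUFV2 the number of the brightest set lay beside those of members on other chromosomes. Whether these sets read copies elsewhere was not tested. Of 7 members with several probe sets the dimmer ones lay on the same side of 0 as the brightest, and the pair of NDUFB4 held identical values.

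Genes that serve the chain were read as lists of known function, and 0 genes of any list passed limma over all genes. The counts at an unadjusted p under 0.05 below stand beside 9.53% of all genes and 13.2% of genes at or above the median level. Of 15 measured assembly factors of complex I, 1 was higher and 3 lower with an unadjusted p under 0.05 (26.7%), with a median of -0.15. NDUFAF3, which acts early in assembly, read 6.66, 6.27 and 6.37 with the empty vector and 6.69, 6.92 and 7.24 with Pu.2, without overlap, with a log2 fold change of 0.51 (SE 0.17, limma adjusted p = 0.37). COA1 had -0.50 (adjusted p = 0.41). Of 28 assembly factors of complexes II to V, 0 were higher and 4 lower at that level (14.3%), with a median of -0.03, and COX14, which steers the core subunit of complex IV, had -0.60 without overlap (adjusted p = 0.26) and COA7 -0.61 (adjusted p = 0.42, and -0.39 without Pu.2 line 3).

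A list of carriers between the complexes and of nucleotides, together with genes of ubiquinone synthesis, held the largest single difference of these lists. Of 20 measured genes, 0 were higher and 4 lower with an unadjusted p under 0.05 (20%, against 9.53% of all genes), with a median of -0.10. Those 4 were COQ5, COQ6 and COQ9 of ubiquinone synthesis and ETFDH. Among the carriers, CYCS (cytochrome c) had -0.04, and the nucleotide carriers SLC25A4 and SLC25A5 had -0.0013 and -0.31. COQ5, a methyltransferase of ubiquinone synthesis, read 9.36, 9.70 and 9.58 with the empty vector and 8.99, 8.39 and 8.48 with Pu.2. Every Pu.2 line lay below every vector line, with a log2 fold change of -0.93 (SE 0.18, 95% interval -1.34 to -0.51, limma adjusted p = 0.11), which ran from -1.12 to -0.81 with each line left out. ETFDH, which feeds electrons from fatty acid oxidation into ubiquinone, had -0.71 without overlap (SE 0.15, adjusted p = 0.14).

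In the citric acid cycle, which supplies NADH and succinate, 0 of 15 measured genes were higher and 3 lower with an unadjusted p under 0.05 (20%, against 9.53% of all genes), with a median of -0.05. SUCLG2, the GTP-forming subunit of succinyl-CoA ligase, read 6.17, 6.85 and 6.70 with the empty vector and 5.83, 5.89 and 5.80 with Pu.2. The groups did not overlap, and the log2 fold change was -0.74 (SE 0.18, limma adjusted p = 0.19, and 0.045 with -0.94 without vector line 1). IDH3B, a subunit of the NAD-linked isocitrate dehydrogenase, had -0.53 without overlap (adjusted p = 0.47) and -0.29 without Pu.2 line 3.

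Genes that maintain and transcribe mitochondrial DNA, 16 measured, had a median of -0.04 and none at an unadjusted p under 0.05, with the helicase TWNK at -0.42 (-0.24 without vector line 3) and MTERF1 at 0.43 (0.21 without vector line 1 and 0.70 without vector line 3). The 19 measured regulators of mitochondrial biogenesis had a median of -0.02 and none at that level. SIRT3 had -0.18 and MYC -0.16 as the largest of them. The 73 measured proteins of the mitochondrial ribosome had a median of -0.13, with 3 higher and 8 lower with an unadjusted p under 0.05 (15.1%, against 9.53% of all genes). MRPL16 had -0.85 without overlap (limma adjusted p = 0.38) and MRPL35 0.58 without overlap (adjusted p = 0.33, and 0.028 with 0.77 without vector line 3).

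The mitochondrial ribosome followed the subunits over the lines. Its median deviation was 0.13 in vector line 3, -0.19 in Pu.2 line 3 and 0.01 in each of the other lines. Of its 73 genes, 40 (54.8%) had their lowest value in Pu.2 line 3, against 17.1% of all genes and 25.8% of genes at 9 or more. In vector line 3, 32 (43.8%) had their highest value, against 17.5% of all genes. That share was 23.9% for genes at or above the median level and 39.9% for genes at 9 or more. All 73 ribosome genes lay at or above the median level, with a median level of 7.99. Without Pu.2 line 3 the median log2 fold change of the ribosome was -0.04, with 38 of 73 below 0.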

How the data were processed

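The authors hybridized total RNA of each line to Affymetrix Human Gene arrays, ran Expression Console and deposited a table of log2 values, with 1 row for each probe set. Its algorithm, like any batch, is not given in the sources used here. Names came from the annotation of the platform. Of 33297 probe sets, 19460 carried 1 symbol, 1754 several and 12083 were unnamed here. The brightest probe set of a gene was taken, which gave 18417 genes, with no filter on level. Groups were compared with limma 3.58.1 under R 4.3.3, through lmFit and eBayes without a trend, and Benjamini-Hochberg adjustment over all genes and a threshold of 0.05. Simulated data were used to test these steps. With 3 lines a group, 0.1 is the smallest p of an exact permutation test, and the number of arrays limits the precision. Members and lists were chosen with earlier results of these data known. Values were given in the text for members at an unadjusted p under 0.05, the 3 of each complex and up to 2 of each other list with the largest absolute difference, and both genes of each pair of forms. Other genes, named for their role or to complete a count, were picked with their values in view. Promoters came from RefSeq (GRCh38.p14), and the window listed first for a gene was used. Alternatives tried were a block on the replicate number, leaving out each line, a filter on dim probe sets, quantile normalization, median centring, cyclic loess, a trend with a robust fit, array weights, the mean of probe sets and dimmer probe sets, and for motifs a shorter window or the gene's own strand.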

Additional observations from a re-analysis of the deposited data

How the results depend on the processing

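No subunit gene passed limma under any alternative but array weights, where NDUFV3 and ATP5MC1 were higher and 2 of 80 passed (smallest adjusted p = 0.027). There vector line 2 had a weight of 5.52 against 0.40 to 1.34 for the other arrays. In all, 1349 of 18417 genes passed, among them COQ5, ETFDH, SUCLG2, NDUFAF3, COX14 and MRPL35. Array weights also gave 2 of 15 genes past the test in complex I assembly and 3 of 28 in assembly of complexes II to V. The counts were 4 of 20 for carriers and ubiquinone synthesis, 2 of 15 for the citric acid cycle and 1 of 16 for mitochondrial DNA maintenance. For the mitochondrial ribosome 4 of 73 passed. With 1 line left out these counts were 0 to 1 for the citric acid cycle and for the mitochondrial ribosome and 0 for the other lists and for the members. The median of the members stayed below 0 in each alternative, from -0.15 to -0.03 with 1 line left out, -0.10 after quantile normalization, -0.14 after median centring and -0.03 with array weights, and 46 to 67 of 80 members (59 of 74 after the filter) lay below 0. The fit with the replicate number as a block called 0 members and gave a median of -0.11, and it moved no call. Deviations from the group means correlated at -0.15, -0.15 and -0.04 between vector and Pu.2 lines of the same number. Between lines of different numbers they correlated at -0.0042 to 0.12. With 3 lines a group and no batch given, these values cannot decide whether the numbers pair the lines. The dimmer probe sets, an alternative chosen after seeing the data, gave a median of -0.10.

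Without Pu.2 line 3, 15 of 80 members changed sign, all from below 0, among them UQCR11 (from -0.24 to 0.02), UQCRH (from -0.18 to 0.01) and COX5B (from -0.17 to 0.03). Without vector line 3, 19 changed sign, and with array weights 20, among them ATP5ME (from -0.25 to 0.0003). COXFA4 was at 0.0025 after quantile normalization and COX8A at -0.018 after median centring. Array weights gave 0.074 for COX6A1, 0.13 for COX6B2, 0.011 for COX7A2, 0.13 for COX7B2, 0.0045 for COX8C and 0.065 for COXFA4. With each line left out the values ran from -0.15 to 0.051 for COX6A1, -0.13 to 0.012 for COX6B1, -0.089 to 0.11 for COX6B2, -0.14 to 0.090 for COX7B2, -0.10 to 0.13 for COX8A, -0.17 to 0.018 for COX8C and -0.10 to 0.056 for COXFA4. The share of windows with CCGGAAG was 11.9% on the gene's own strand alone, against 5.98% of all windows and 8.05% of protein-coding ones under that setting. That with AAGATGGCG was 1.49% in the 250 bases before the start, against 0.641% and 0.751%. The cause was not tested. With 3 clones a group and 1 array a clone, clone and handling cannot be told apart. Levels were set against the median probe set and a fixed bound, and probe sets of the same gene were ranked by brightness. Whether different probe sets read the same amount of RNA equally brightly was not tested, so these comparisons are of brightness only.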
